A study of Homo sapiens with 6 samples.

Results

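The open regions of the replication-dependent histone gene clusters were examined in sorted human embryonic stem cells. A member was any region of the deposited counts table whose midpoint lay in 1 of 3 windows of hg19: on chromosome 6 from 26.01 to 26.29 Mb (the large HIST1 window) and from 27.75 to 27.88 Mb (the small HIST1 window), and on chromosome 1 from 149.75 to 149.90 Mb (the HIST2 window). The rule used position only, so a member need not lie at a histone gene. It found 49 of the 118556 regions in the table, 25 in the large HIST1 window, 14 in the small HIST1 window and 10 in the HIST2 window. All 49 were tested, and no filter on low counts was applied.

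FAST-ATAC, an assay in which adapters for sequencing are inserted into open chromatin by Tn5 transposase, gave the read counts. The cells were from WA09, a human embryonic stem cell line, so that the results describe 1 line. The GCTM-2highCD9highEPCAMhigh population (the high population, 3 replicates) was sorted for the strongest staining of 3 surface markers, and the GCTM-2midCD9mid population (the mid population, 3 replicates, titled low in the sample labels) for intermediate staining of GCTM-2 and CD9. The sample labels name no treatment for either population, and the comparison asked where chromatin differed between cells of high and of lower marker expression.

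Histone proteins package DNA into nucleosomes, with H2A, H2B, H3 and H4 forming the core and the linker histone H1 binding between cores. The replication-dependent genes that encode them are short, lack introns, sit in clusters, and are transcribed mainly in S phase, when new DNA must be packaged. Transcription is organised by NPAT at a nuclear structure known as the histone locus body, and the transcripts end in a stem-loop instead of a poly(A) tail. The 2 clusters studied hold many gene copies that encode the same or nearly the same protein, and neighbouring H2A and H2B genes are often transcribed away from each other from a shared promoter.

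Promoter sequences of these genes are shown to illustrate what an open region of these clusters can contain. By their older symbols, 55 protein-coding HIST1 genes, 12 HIST2 genes and 3 HIST3 genes were found in the RefSeq gene table of GRCh38.p14, and the promoter table held 65 of these 70 genes. Each printed stretch runs 5′ to 3′ from 250 bases before the gene's start to 50 bases after it. Capitals mark TATAAA on the gene's strand, and CCAAT (or ATTGG) and the octamer ATTTGCAT (or ATGCAAAT) on either strand. The GRCh38.p14 positions cannot be compared with the hg19 positions of the regions, so no promoter was assigned to a region. The first shown belongs to H1-1, a linker histone gene, the next pair to the neighbouring genes H2AC6 and H2BC4, and the last pair to H3C1 and H4C2, an H3 and an H4 gene.
H1-1 promoter, chr6:26017738-26018037 of GRCh38.p14, minus strand: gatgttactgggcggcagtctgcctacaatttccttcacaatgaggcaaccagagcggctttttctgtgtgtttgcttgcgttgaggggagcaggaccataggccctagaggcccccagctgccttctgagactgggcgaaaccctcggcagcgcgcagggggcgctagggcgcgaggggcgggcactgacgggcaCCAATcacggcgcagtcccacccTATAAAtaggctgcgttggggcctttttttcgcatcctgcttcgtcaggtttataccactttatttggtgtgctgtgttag
H2AC6 promoter, chr6:26123922-26124221 of GRCh38.p14, plus strand: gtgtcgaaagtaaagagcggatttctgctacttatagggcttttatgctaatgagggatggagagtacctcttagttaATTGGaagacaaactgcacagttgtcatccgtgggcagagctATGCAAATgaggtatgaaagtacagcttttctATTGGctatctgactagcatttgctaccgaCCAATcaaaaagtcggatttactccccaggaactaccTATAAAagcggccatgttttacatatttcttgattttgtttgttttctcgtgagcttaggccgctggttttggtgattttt
H2BC4 promoter, chr6:26123877-26124176 of GRCh38.p14, minus strand: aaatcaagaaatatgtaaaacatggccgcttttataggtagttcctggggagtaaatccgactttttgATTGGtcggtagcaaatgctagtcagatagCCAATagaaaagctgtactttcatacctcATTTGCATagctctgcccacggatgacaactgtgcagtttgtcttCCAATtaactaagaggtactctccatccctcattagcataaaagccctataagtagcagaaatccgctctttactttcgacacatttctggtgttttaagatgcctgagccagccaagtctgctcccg
H3C1 promoter, chr6:26020201-26020500 of GRCh38.p14, plus strand: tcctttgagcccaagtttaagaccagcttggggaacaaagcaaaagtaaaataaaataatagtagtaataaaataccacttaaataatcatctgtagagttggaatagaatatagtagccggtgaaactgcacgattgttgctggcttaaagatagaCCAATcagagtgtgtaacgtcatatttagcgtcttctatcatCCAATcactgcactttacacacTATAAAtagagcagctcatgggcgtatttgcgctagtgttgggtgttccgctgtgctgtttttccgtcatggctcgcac
H4C2 promoter, chr6:26027234-26027533 of GRCh38.p14, minus strand: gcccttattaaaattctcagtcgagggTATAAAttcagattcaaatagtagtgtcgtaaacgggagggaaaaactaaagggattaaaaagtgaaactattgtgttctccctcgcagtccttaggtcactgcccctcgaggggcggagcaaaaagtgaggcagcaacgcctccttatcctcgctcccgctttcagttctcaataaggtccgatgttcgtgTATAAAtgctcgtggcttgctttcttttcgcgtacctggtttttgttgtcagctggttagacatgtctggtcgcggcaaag

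The H2AC6 and H2BC4 stretches overlap by 255 bases on opposite strands, so both show the same octamer and the same 3 CCAAT matches, read from either side. In all, 11 pairs of H2A and H2B genes next to each other in position and pointing away from each other were found among the 65 genes with a promoter entry. A HIST3 pair was among them. These pairs were found by order and strand alone, and overlap was measured for H2AC6 and H2BC4 only. TATAAA, searched on both strands, was present in 43 of the 65 histone promoters (66.15%), against 11.95% of 27303 RefSeq promoters of the same length. CCAAT was present on either strand in 56 (86.2%), against 35.7% of all promoters. It was found in all promoters of the H1, H2A, H2B and H3 genes held in the table (6, 16, 18 and 13 genes), and in 3 of the 12 H4 promoters. The octamer was found in 11 of 16 H2A and 14 of 18 H2B promoters, in 1 of 13 H3 promoters and in none of the H1 and H4 promoters, against 1.80% of all promoters. Matches of different motifs can share letters, though none do in the sequences printed, and a match describes the sequence only. The 65 genes include those of HIST3 and were not limited to the windows, so these shares do not describe the windows alone.

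Total counts in all regions lay between 15486251 and 29025274 per sample. The members held 214282 reads over the 6 samples, from 232 to 14676 per member. In sorted bulk samples, a larger share of cells with an open region and a more open region in each cell cannot be told apart.

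Open regions covered 29.6% of the 280 kb of the large HIST1 window, 32.02% of the 130 kb of the small HIST1 window and 13.45% of the 150 kb of the HIST2 window. The regions were wide. The median width was 3480 bp in the large HIST1 window, 2356.5 bp in the small HIST1 window and 1512 bp in the HIST2 window, against 879 bp over all regions. The widest member was region 13 of the small HIST1 window (chr6:27855953-27864204, 8252 bp), and members are numbered here by position within each window. The mean level over the 6 samples, given as CPM per kb (reads scaled to library size with TMM normalization and divided by the width), ran from 2.996 to 16.9 over the members, with a median of 9.16, against a median of 4.43 over all regions. The highest levels were in region 6 of the HIST2 window (16.9 CPM per kb), region 3 of the small HIST1 window (15.9 CPM per kb) and region 3 of the large HIST1 window (15.3 CPM per kb).

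A smaller share of the reads fell in the clusters in the high population than in the mid population. The 49 regions together took 0.116, 0.133 and 0.133% of all counted reads in high replicates 1, 2 and 3, and 0.194, 0.171 and 0.163% in mid replicates 1, 2 and 3. Every high sample lay below every mid sample, and the means were 0.127% ± 0.00980 for high and 0.176% ± 0.0164 for mid samples (SD, n = 3 each), which puts the mid population 1.38 times higher. The populations were also apart in each window taken alone. The mean share was 0.0749% ± 0.00503 and 0.101% ± 0.00977 in the large HIST1 window, 0.0354% ± 0.00299 and 0.0496% ± 0.00476 in the small HIST1 window, and 0.0170% ± 0.00245 and 0.0252% ± 0.00183 in the HIST2 window, for the high and the mid population respectively (SD, n = 3). The ratio of mid to high was 1.35, 1.40 and 1.48 in the 3 windows. Shares over members chosen as a group were not tested.

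**Figure D1:**
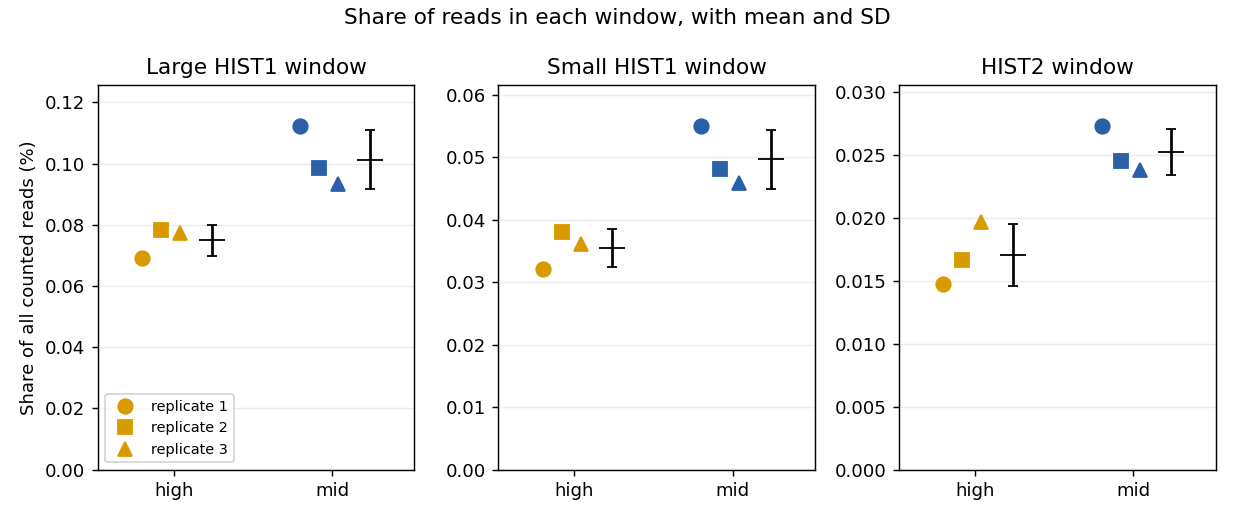
Share of all counted reads (percent, vertical axes starting at 0) in the regions of each window, for the high and the mid population; symbols are replicates, and the bar beside them is the mean with 1 SD. In each window the 3 mid samples lie above the 3 high samples, with means of 0.0749 against 0.101% in the large HIST1 window.

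Of the 49 regions, 26 were more accessible in the mid population and 0 in the high population in edgeR's quasi-likelihood test with replicate number as a block, at an adjusted p-value under 0.01 over all regions. Over the whole table, 3.77% of regions were called higher in the mid population and 2.32% higher in the high population. Calls were more frequent in regions of many reads. Among the 11968 other regions with an average log2 CPM at least that of the median member, 23.3% were called higher in the mid population. In these, 2.33% were called higher in the high population, and the median log2 fold change was -0.21. Not all members reach that level. At an unadjusted p under 0.05, 34 members were lower and 0 were higher in the high population, against 13.6% and 14.2% of all regions. DESeq2, at an adjusted p under 0.01, called 0 members higher in the high population, against 0.835% of all regions. It gave no adjusted p for 8 members. High over mid, the log2 fold change lay below 0 in 46 of the 49, with a median of -0.54, against 0.03 over all regions. Every mid sample lay above every high sample in 35 members, against 13% of all regions, and every high sample above every mid sample in 0 members, against 12.9% of all regions. Among the 26 called regions the fold difference, mid over high, ran from 1.39 to 2.33 with a median of 1.56, so the differences were modest, and 2 passed 2-fold. In 37 of the 49 members the high sample lay below the mid sample in all 3 same-numbered pairs, against 22.4% of all regions.

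**Figure D2:**
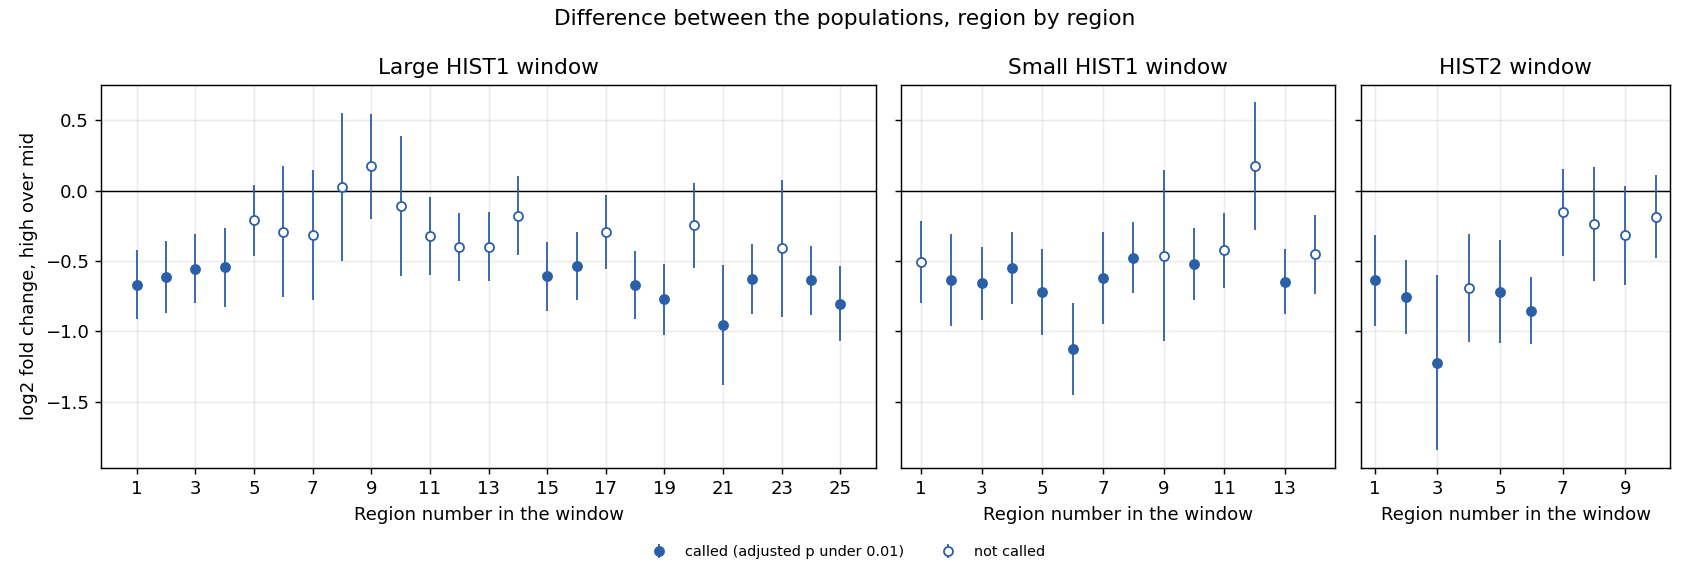
Log2 fold change of high over mid (vertical axis) for each region in order of position within its window (horizontal axis), with 95% confidence intervals from the quasi-likelihood fit; filled points were called at an adjusted p under 0.01. Points lie below 0 for 46 of the 49 regions, and the 26 called regions all lie below 0.

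In the large HIST1 window 12 of 25 regions were called. Region 25 (chr6:26284220-26287065, 2846 bp) had 7.32, 8.63 and 8.84 CPM per kb in high replicates 1, 2 and 3, and 16.3, 13.7 and 13.3 CPM per kb in mid replicates 1, 2 and 3. All mid values exceeded all high values (log2 fold change -0.80, standard error 0.13, adjusted p = 2.19e-05). Region 19 (chr6:26222698-26227046) had 8.03, 8.93 and 9.57 CPM per kb in the high and 17.5, 15.1 and 13.03 CPM per kb in the mid replicates. It had the smallest p-value of the window, at a log2 fold change of -0.77 ± 0.13 (standard error) and an adjusted p of 1.81e-05. The largest change belonged to a narrow region of low level, region 21 (chr6:26240109-26241249), with 2.10, 2.91 and 3.08 CPM per kb in the high and 6.71, 5.20 and 4.17 CPM per kb in the mid replicates. Its log2 fold change was -0.96 (standard error 0.21, adjusted p = 0.00139).

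The other called regions of this window named by the rule were wide and of higher level. Region 18 (chr6:26214001-26219554) had 9.78 ± 0.579 CPM per kb in the high population and 15.7 ± 2.34 CPM per kb in the mid population (SD, n = 3; adjusted p = 8.54e-05). At the left end of the window, region 1 (chr6:26019721-26023928) had 9.53 ± 0.690 and 15.2 ± 1.91 CPM per kb (adjusted p = 0.000116), and region 2 (chr6:26025367-26030031) had 7.29 ± 0.571 and 11.2 ± 1.89 CPM per kb (adjusted p = 0.000566). Region 3 (chr6:26031401-26034911), the highest of the window, had 12.4, 12.2 and 12.5 CPM per kb in the high replicates and 22.0, 16.1 and 16.8 CPM per kb in the mid replicates (log2 fold change -0.55, adjusted p = 0.00128). Its high replicates lay close together, and its mid replicates were spread more widely. The remaining named calls were region 15 (chr6:26182878-26190117, log2 fold change -0.61), region 22 (chr6:26248833-26252750, -0.63) and region 24 (chr6:26268787-26275630, -0.64), all with adjusted p-values under 0.001.

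The calls of the large HIST1 window lay at its ends. All 4 of regions 1 to 4 (26019721 to 26046296) were called, 0 of the 10 regions 5 to 14 (26054271 to 26173909), and 8 of the 11 regions 15 to 25 (26182878 to 26287065). The median log2 fold changes of these runs were -0.58, -0.25 and -0.63. The runs were set after their values were seen and were not tested. The middle run was also narrower, with a median width of 1644.5 bp against 3859.5 and 3918 bp. It held regions of high level that did not pass the threshold. Region 12 (chr6:26122339-26127129) had 11.1, 14.1 and 12.9 CPM per kb in the high and 18.6, 16.1 and 15.6 CPM per kb in the mid replicates, with no overlap (log2 fold change -0.40, 95% interval -0.64 to -0.16, adjusted p = 0.0195). Region 13 (chr6:26155620-26161380) had a log2 fold change of -0.40 (interval -0.64 to -0.15, adjusted p = 0.0222). The highest value toward the high population was that of region 9 (chr6:26087305-26088493), with 5.66, 5.23 and 5.42 CPM per kb in the high and 4.26, 5.57 and 4.71 CPM per kb in the mid replicates. These overlapped, and the log2 fold change of 0.18 had an interval from -0.20 to 0.55.

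In the small HIST1 window 9 of 14 regions were called. Region 6 (chr6:27793475-27795837) had 2.70, 3.44 and 3.37 CPM per kb in high replicates 1, 2 and 3 and 6.53, 7.82 and 6.47 CPM per kb in mid replicates 1, 2 and 3. Every mid replicate lay above every high replicate, at a log2 fold change of -1.13 ± 0.16 (standard error) and an adjusted p of 2.03e-06. Its neighbour, region 5 (chr6:27791140-27793259), lay 215 bp away and was of higher level, with 5.28, 6.04 and 5.40 CPM per kb in the high and 10.9, 8.68 and 8.17 CPM per kb in the mid replicates (log2 fold change -0.72, standard error 0.15, adjusted p = 0.000727). Region 13, the widest, had 9.43, 10.3 and 9.70 CPM per kb in the high and 18.7, 14.1 and 13.8 CPM per kb in the mid replicates (log2 fold change -0.65, standard error 0.12, adjusted p = 7.39e-05). Region 3 (chr6:27774132-27776947), of the highest level in this window, had 10.6, 12.7 and 13.5 CPM per kb in the high and 22.4, 19.1 and 16.9 CPM per kb in the mid replicates (log2 fold change -0.66, adjusted p = 0.000312). In each of these 4 regions the populations were apart.

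Region 4 (chr6:27779736-27784140, log2 fold change -0.55), region 10 (chr6:27832292-27836528, -0.52), region 2 (chr6:27762861-27764505, -0.63), region 7 (chr6:27797855-27799857, -0.62) and region 8 (chr6:27804237-27807927, -0.48) were the other calls, with adjusted p-values from 0.00235 to 0.00745. Region 14 (chr6:27869476-27871692) was the region of highest level not called, with 7.85, 7.85 and 7.45 CPM per kb in the high and 10.1, 10.3 and 11.3 CPM per kb in the mid replicates. The populations did not overlap, but the log2 fold change of -0.45 had an adjusted p of 0.0239. The value farthest toward the high population was in region 12 (chr6:27850252-27851089), with 2.59, 4.26 and 6.06 CPM per kb in the high and 3.45, 4.24 and 3.52 CPM per kb in the mid replicates. The high replicates enclosed the mid replicates, and the log2 fold change of 0.17 had an interval from -0.28 to 0.63.

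In the HIST2 window 5 of 10 regions were called, all among the first 6. Region 6 (chr1:149855906-149861167, 5262 bp) had 10.99, 11.8 and 13.2 CPM per kb in high replicates 1, 2 and 3 and 25.02, 20.3 and 19.9 CPM per kb in mid replicates 1, 2 and 3. It had the smallest p-value of all 49 regions, at a log2 fold change of -0.85 ± 0.12 (standard error) and an adjusted p of 9.29e-07. Region 2 (chr1:149782186-149785806) had 7.80, 8.82 and 10.2 CPM per kb in the high and 18.0, 13.9 and 13.7 CPM per kb in the mid replicates (log2 fold change -0.76, standard error 0.13, adjusted p = 4.71e-05). Both were wide regions in which the populations did not overlap.

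The largest change of all members was in region 3 of the HIST2 window (chr1:149814875-149815424), a region of 550 bp with the lowest level of the 49. It had 1.97, 2.01 and 1.41 CPM per kb in the high and 4.37, 4.72 and 3.48 CPM per kb in the mid replicates, which gave a log2 fold change of -1.22 ± 0.31 (standard error) at an adjusted p of 0.00517. The counts behind these values were 19, 18 and 21 reads in the high and 64, 60 and 50 reads in the mid replicates. Region 5 (chr1:149819989-149822114) had 2.60, 2.63 and 2.72 CPM per kb in the high and 4.47, 5.68 and 3.32 CPM per kb in the mid replicates (log2 fold change -0.72, adjusted p = 0.00546). Region 1 (chr1:149763873-149765376) had 6.34, 7.16 and 10.8 CPM per kb in the high and 13.4, 12.6 and 11.3 CPM per kb in the mid replicates (log2 fold change -0.64, adjusted p = 0.00495). Its high replicate 3 lay close to the mid samples. Some HIST2 genes are present as near-identical copies, and how reads that match several places were counted is not given in the sources used here, so the division of reads between such copies is uncertain.

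None of regions 7 to 10 of the HIST2 window (149870615 to 149900663) was called. Region 7 (chr1:149870615-149872120), of high level, had 8.11, 9.76 and 12.8 CPM per kb in the high and 12.5, 10.2 and 11.05 CPM per kb in the mid replicates. The populations overlapped, and the log2 fold change of -0.15 had an interval from -0.46 to 0.16. The median log2 fold change was -0.21 in these 4 regions and -0.74 in regions 1 to 6, a division made after the values were seen and not tested.

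**Figure D3:**
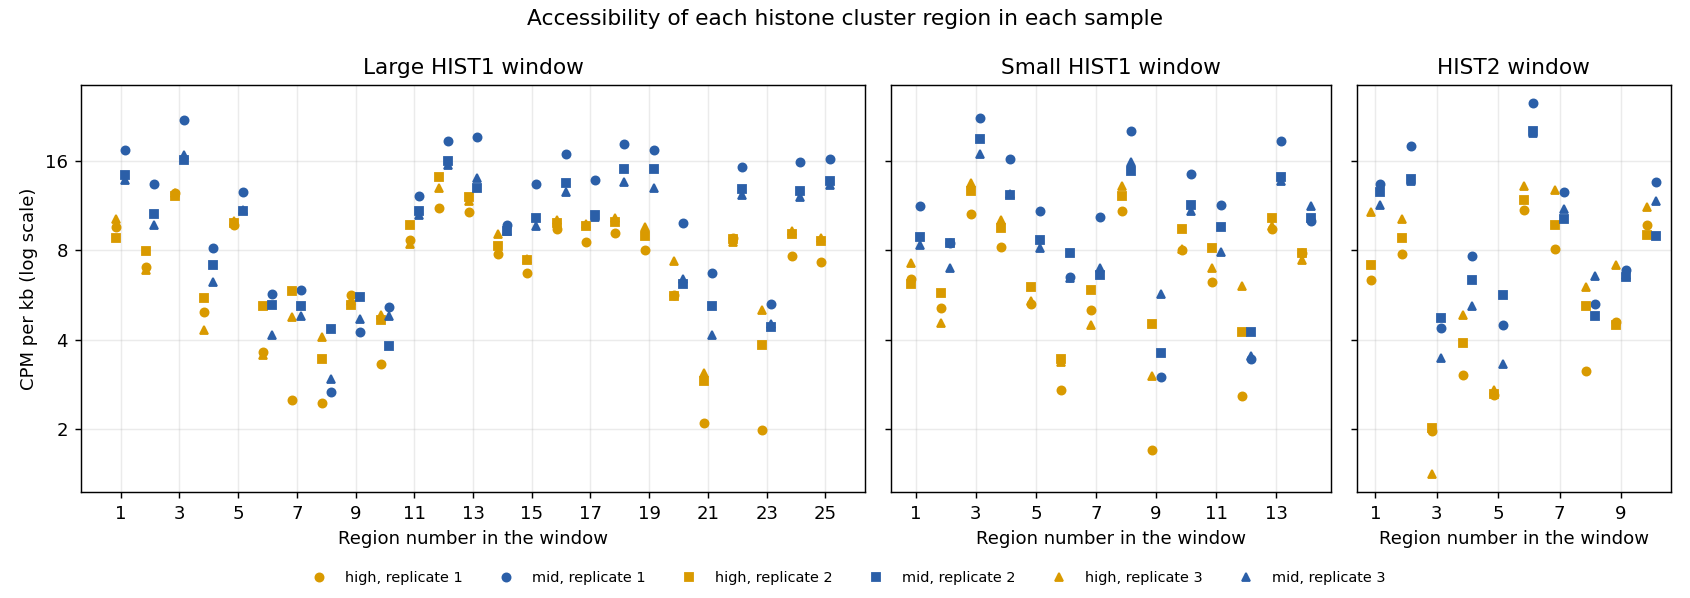
Level of each region in each sample, as CPM per kb on a log scale, by region number within its window; yellow points are the high and blue points the mid population, with a symbol for each replicate. Blue points lie above yellow points without overlap in 35 of the 49 regions, and mid replicate 1 is the highest sample in 37.

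Wide regions were lower in the high population over the whole table, and the members were wide. Outside the windows the median log2 fold change was 0.13 in regions of about 686 bp (median width of their class) and -0.34 in regions of about 4495.5 bp. Among regions of at least 3 kb, 16 of 22 members (72.7%) were called higher in the mid population, against 30.6% of the 4652 other regions. Among regions of 1 to 3 kb, 9 of 18 members were called, against 6% of 43707 other regions, and among those under 1 kb 1 of 9, against 0.569% of 70148. At the median member width of 2363 bp or above, 19 of 25 members were called, against 24.6% of other regions. The median log2 fold change of members and other regions was -0.55 and -0.31 at 3 kb or more, -0.63 and -0.03 at 1 to 3 kb, and -0.29 and 0.10 under 1 kb. Widths were not matched within these classes. The median width of members and other regions was 4293 and 3697 bp at 3 kb or more, and 4208 and 2996 bp at 2363 bp or above. It was 2051.5 and 1425 bp at 1 to 3 kb, and 678 and 694 bp under 1 kb. Across the 49 members, width and log2 fold change had a Spearman correlation of -0.32 as a description, the members sharing the same libraries.

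**Figure D4:**
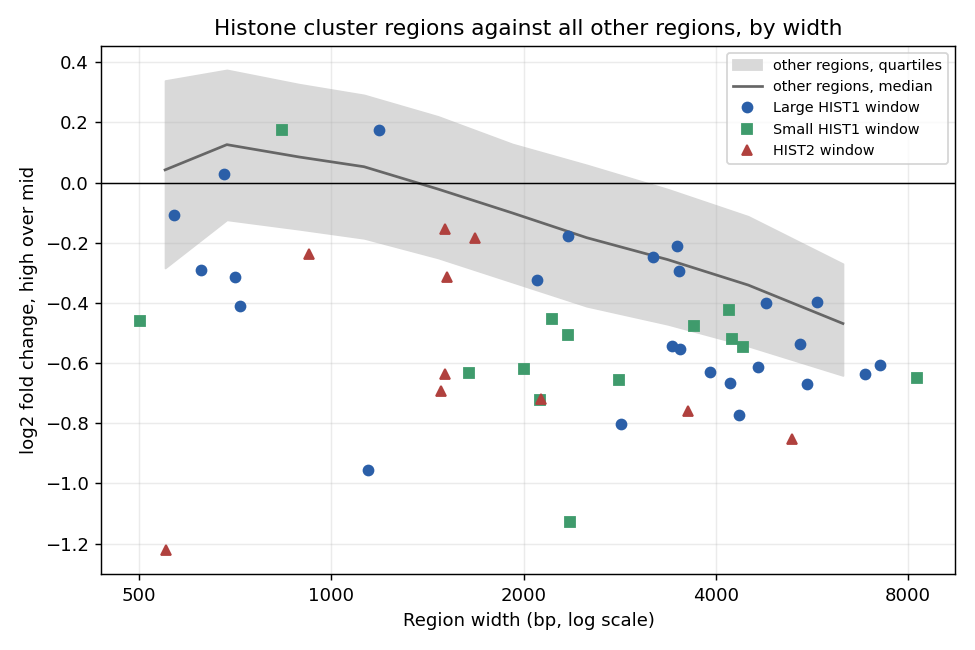
Log2 fold change of high over mid (vertical axis) against region width (bp, log scale). Points are the 49 member regions by window. The line and grey band are the median and quartiles of all other regions in classes of width. The line reaches 0.13 in regions of about 686 bp and falls to -0.47 in those of about 6325 bp, and 46 of the 49 points lie below 0.

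When the width trend was taken out with loess offsets on region width, 11 of the 49 were called higher in the mid population, against 2.40% of all regions, and the median log2 fold change was -0.29. All 11 were among the 26, and 4 lay in the HIST2 window. The log2 fold changes of the widest regions moved toward 0, to -0.15 in region 13 of the small HIST1 window, -0.14 in region 15 of the large HIST1 window and -0.19 in region 24 of that window, and these calls were lost. Larger changes remained called in narrower regions, with -1.002 in region 21 of the large HIST1 window, -0.97 in region 6 of the small HIST1 window and -1.26 in region 3 of the HIST2 window. Most called regions of at least 3 kb lost their calls, but some kept them at smaller changes. These were region 6 (-0.48) and region 2 (-0.49) of the HIST2 window and region 19 of the large HIST1 window (-0.45).

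The surroundings of the windows were also lower in the high population than their chromosomes outside the windows taken as a whole. The histone genes counted above were collected without regard to the windows and were not placed on hg19, so these stretches may hold some. Between both HIST1 windows, 27 of 117 regions (23.1%) were called higher in the mid population and 0 higher in the high population, with a median log2 fold change of -0.38. In the 1 Mb on either side of each window, 20 of 114 regions were called higher in the mid population around the large HIST1 window (17.5%), 25 of 152 around the small HIST1 window (16.4%) and 14 of 84 around the HIST2 window (16.7%). The flanks of the HIST1 windows share regions. Their median log2 fold changes were -0.18, -0.34 and -0.30, against -0.41, -0.53 and -0.66 inside the windows. The median was 0.11 over all of chromosome 6 and 0.00 over all of chromosome 1 outside the windows, sets that include these surroundings. Regions of the surroundings were also wider. Their median width was 1478 bp between the HIST1 windows and 1190, 1361 and 1199 bp in the flanks. It was 860 bp over chromosome 6 and 931 bp over chromosome 1 outside the windows. The differences between windows and flanks were not tested.

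The replicate pairs gave the same direction with different sizes. The median log2 ratio of high to mid over the 49 regions was -0.84 in pair 1, -0.39 in pair 2 and -0.31 in pair 3, against 0.01, 0.03 and 0.03 over all regions. Without the replicate 2 pair 3 members were called, against 0.369% of all regions, while the median log2 fold change was -0.58. With no replicate block 9 were called, against 1.11% of all regions, all 9 among the 26. Mid replicate 1 was the highest sample in 37 members, and without it 17 were called, against 3.23% of all regions. Region 25 of the large HIST1 window, region 6 of the small HIST1 window and region 6 of the HIST2 window were called in each of the 20 settings run. The share of all regions called in every setting was not counted, and the settings share samples. In these settings 0 members were called higher in the high population, against 0.236% (no replicate block) to 4.19% (total counts only) of all regions. At such low shares, a count of 0 among 49 says little by itself.

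**Figure D5:**
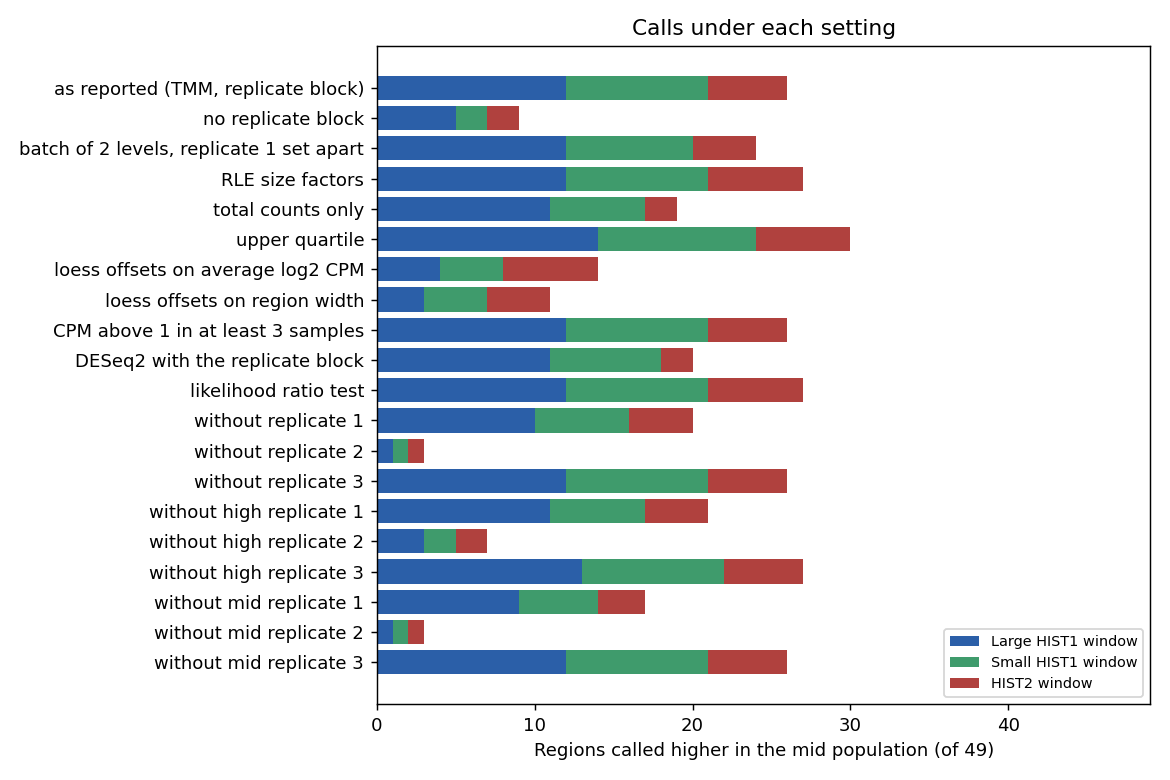
Number of the 49 regions called higher in the mid population (horizontal axis) as reported and under each of 19 other settings, with bars divided by window. The count is 26 as reported, 9 with no replicate block, 11 with offsets on width and 3 without replicate 2.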

How the data were processed

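Counts of reads per open region were deposited without normalization for 3 replicates of each sorted WA09 population. The authors used Trimmomatic for trimming, BWA (0.7.15 in the submitters' processing notes) for alignment to hg19 and Picard to remove duplicates, moved reads to where Tn5 cut, and found regions with MACS (1.4.2 in the same notes, another version in the study's methods) on alignments pooled over replicates, merged both populations' regions, left out blacklisted ones and counted with bedtools. Pooled calling hides how often a region was open in single replicates, and wide merged regions gather more reads and so more power. The deposited table holds 118556 regions, more than the number of accessible regions given in the study's text. The reason is not known here, so whether the table is the study's final filtered set is uncertain. Starts are printed 1 higher than deposited, on the reading that the table counts from 0.

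The analysis used R 4.3.3 and edgeR 4.0.16: TMM, quasi-likelihood test, replicate number as a block, all 118556 regions, Benjamini-Hochberg adjusted p under 0.01. The study used batch as a covariate without saying how batch was coded, and replicate number stands in for it here. Same-numbered samples deviated together from their population means (r of 0.30, 0.19 and 0.23 over all regions, against -0.26 to 0.06 for other pairings), and the numbers come from the sample labels. Deviations from a mean of 3 samples cancel out, so positive values in same-numbered pairs force lower values elsewhere. The contrast is thus partly built in and does not establish the pairing. Over the members r was 0.36, 0.06 and 0.23, against -0.40 to 0.26 for other pairings, the highest being high replicate 2 with mid replicate 3. Samples of a population differed by more than sampling noise. The study calls the replicates biological but does not say how cultures were kept apart, so p-values speak for these samples only. They weigh the population difference against the spread left after the replicate block, estimated in part from all regions together. Standard errors are the log2 fold change divided by the root of the test's F statistic. Ratios within pairs had 0.1 CPM added. The fit was tested on simulated data.

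The windows, lists and tests were chosen with earlier results of these data known. Regions named were, in each window, the 3 of highest level, the 3 widest, up to 8 calls in each direction by p-value, the largest change each way, and the highest level not called. The promoters are the first HIST1 gene by symbol with an entry for H1, H3 and H4. The H2A and H2B pair was chosen for its arrangement in place of the first by symbol. Alternatives used limma 3.58.1 (loess, span 0.3) and DESeq2 1.42.0. Regions were not assigned to genes, and surface marker genes were not checked, since no hg19 annotation was used.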

Additional observations from a re-analysis of the deposited data

How the results depend on the processing

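The direction of the median log2 fold change held in every alternative run (-0.61 to -0.29, against -0.54). The number called higher in the mid population, 26 as reported, was 9 with no replicate block (1.11% of all regions called), 14 with loess offsets on average log2 CPM (2.62%) and 11 (2.40%) with such offsets on region width, where 3.77% were called as reported. It ran from 3 to 27 when a pair or a single sample was left out: 3 without replicate 2 of both populations (0.369%) or of the mid population alone (0.364%), 7 without high replicate 2 (0.708%), and 17 without mid replicate 1 (3.23%). It was 26 without replicate 3 of both populations (4.04%), and the cause was not tested. It was 24 with replicate 1 set apart as a batch (3.56%), 27 with RLE size factors (4.10%) or the likelihood ratio test (4.23%), 19 with total counts only (2.68%), 30 with upper quartile scaling (4.79%), 20 with DESeq2 (3.18%, and no adjusted p for 8 members), 26 with the CPM filter or with any overlap as the member rule (3.77% in both), and 32 at a threshold of 0.05 (7.08%). Total counts put the median of all regions at 0.12, against 0.03 with TMM. The log2 fold change was below 0 in 39 of the 49 in all 20 settings and changed sign between settings in 9, none of them called in the opposite direction. The shares of reads per window moved by less than 1 SD under each alternative. Regions of few reads, such as region 3 of the HIST2 window, have wide intervals at this depth.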
